A study of Mus musculus with 12 samples.

Results

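The 10 genes described here take heme apart, move or store iron, or (Spic) encode a factor of heme-handling macrophages. They are Hmox1, Blvra, Blvrb, Fth1, Ftl1, Slc40a1, Tfrc, Slc11a1, Slc11a2 and Spic, and were chosen by symbol out of 55414 Ensembl gene IDs in the count table, and all 10 were among the 14310 genes kept by the filter on low counts. RNA-seq covered 12 libraries of macrophages from the calf muscle of C57BL6J wild type males aged 8 to 12 weeks, with 3 libraries at 1 dpi (days post injury) and 3 more at each of 2, 4 and 7 dpi. In every mouse the blood supply of 1 hind limb had been cut by tying off and removing the femoral artery. Circulating CD45+ cells were stained in vivo before sacrifice, red blood cells were lysed in the muscle digest, and the macrophages were sorted as t-CD45+CD11b+F4/80+CD64+. Whether the stained circulating cells were kept out of the sort is not given in the sources used here. No library came from uninjured muscle, so every comparison is between days after injury. The labels do not say how many mice made up a library, so the p-values speak only of the spread among these libraries, which may be technical.

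Macrophages that engulf dying red cells and muscle fibres open the heme ring with heme oxygenase, which yields iron, carbon monoxide and biliverdin, and biliverdin reductases turn the last into bilirubin. The freed iron is held in ferritin, a shell of heavy and light chains, or leaves the cell through ferroportin, the only iron exporter known in mammals. Iron regulatory proteins bind hairpins called iron-responsive elements (IREs) when iron is scarce: in the 5′ UTR they block translation, and in the 3′ UTR they protect the mRNA from decay.

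IREs are shown for the 4 of the 10 mRNAs in which a search found them. UTRs of GENCODE vM21 transcripts (GRCm38) were searched on the transcript strand for a C followed by 5 bases and the loop CAGTGN, where the 5 bases before the loop had to pair (G with T allowed) with the 5 bases after it. The bulged C and the loop are in capitals in the 30 bases printed, 5′ to 3′.
Fth1, 5′ UTR: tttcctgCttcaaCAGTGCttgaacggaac
Ftl1, 5′ UTR: tgtcttgCttcaaCAGTGTttgaacggaac
Slc40a1, 5′ UTR: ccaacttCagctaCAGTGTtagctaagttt
Tfrc, 3′ UTR, first: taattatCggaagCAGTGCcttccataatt
Tfrc, 3′ UTR, next: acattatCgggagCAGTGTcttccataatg
Tfrc, 3′ UTR, next: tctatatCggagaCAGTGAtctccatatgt
Tfrc, 3′ UTR, last: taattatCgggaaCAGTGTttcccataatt
Both ferritin chains share the stem around the loop, and the Tfrc elements stand in 1 UTR of 2458 bases. For the 10 genes every protein-coding transcript was searched, but over all genes only the longest transcript of each. There the motif matched the 5′ UTR of 20 of 20232 genes (0.0989%) and the 3′ UTR of 118 of 20879 genes (0.565%). These letters were not found in the UTRs of the other 6 members, which says nothing more about those mRNAs. The elements act on translation and on mRNA decay, and RNA-seq reads only the mRNA.

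Total counts ranged from 19528316 to 33599472 per library, and the 10 genes together took 0.362 to 1.29% of them. Levels are given as CPM (counts per 1000000 counts, scaled by TMM), since 1 unnamed gene ID, ENSMUSG00000119584, held 14.8 to 55.7% of all counts. It held 52.9 to 55.7% at 1 dpi, 40.3 to 49.7% at 2 and 4 dpi and 14.8 to 30.1% at 7 dpi. The share of counts left for other genes was thus smallest at 1 dpi and largest at 7 dpi. All 8 macrophage markers had counts on every day, with a summed level of 5657 to 14821 CPM, most of it from Lyz2, the lysozyme gene (3009 to 11688 CPM). Among the sorted surface proteins' own genes, Itgam (CD11b) and Fcgr1 (CD64) fell from 1 to 7 dpi (log2FC -2.33 and -1.63, edgeR FDR 1.71e-07 and 1.7e-05). Adgre1 and Ptprc, which encode the other sorted proteins, went the other way. Adgre1 stood at 245 to 316 CPM at 1 dpi and at 578 to 775 CPM at 7 dpi. Ptprc stood at 294 to 392 CPM at 1 dpi and at 540 to 597 CPM at 7 dpi. Of the 8 macrophage markers, 5 rose and 2 fell from 1 to 7 dpi at an edgeR FDR under 0.05. A differentially expressed gene (DEG) had an FDR under 0.05 in edgeR's quasi-likelihood test and an absolute log2FC above 1, and a gene that met the FDR alone is said to have risen or fallen. Library 7 dpi replicate 2 stood apart from its group for several of the 10 genes, and 4 dpi replicate 1 for Hmox1. Results that rest on these libraries are also given without them.

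The genes with the largest changes were those for heme oxygenase, the transferrin receptor, ferroportin and Spic. Slc40a1 and Spic rose from 2 to 4 dpi, Hmox1 fell over the same days, and Tfrc fell from 4 to 7 dpi. From 1 to 7 dpi these 4 of the 10 genes were DEGs, against 33.7% of all genes tested, and 6 passed the FDR, against 48.2%. DEGs numbered 0 of 10 from 1 to 2 dpi (9.06% of all genes), 3 of 10 from 2 to 4 dpi (11.9%) and 2 of 10 from 4 to 7 dpi (12.6%). The FDR was passed by 1, 4 and 2 of the 10 genes over these steps, beside 12.5%, 19.5% and 25.5% of all genes, and by 6 in the pairs 1 to 4 dpi (35%) and 2 to 7 dpi (47.4%). Of the 10 genes, 8 passed the FDR in at least 1 of the 6 pairs of days, and Ftl1 and Slc11a2 passed in none. In these bulk libraries, fewer cells of one kind and less RNA per cell cannot be told apart.

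**Figure D1:**
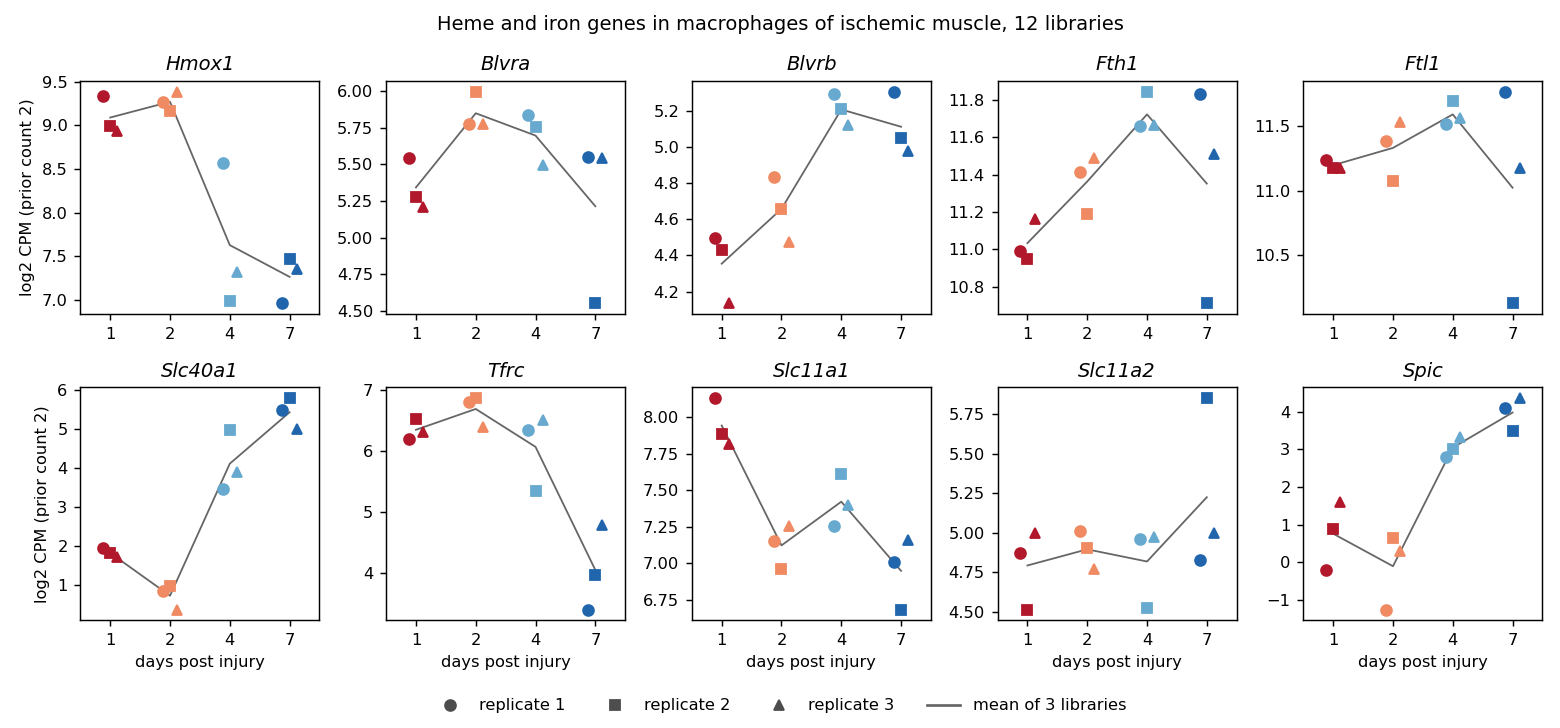
Level of each of the 10 genes in each of the 12 libraries, as log2 CPM (prior count 2) against days post injury, with 1 symbol per replicate number and a line through the mean of 3 libraries. Each panel has its own scale. Slc40a1 and Spic climb after 2 dpi, Hmox1 drops from 2 to 4 dpi and Tfrc from 4 to 7 dpi, and 7 dpi replicate 2 lies below all other libraries in Fth1, Ftl1 and Blvra.

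Hmox1, the inducible heme oxygenase, stood at 648, 509 and 490 CPM in the 3 libraries at 1 dpi and at 614, 573 and 669 CPM at 2 dpi. At 4 dpi it stood at 380, 126.6 and 160 CPM and at 7 dpi at 124, 177 and 164 CPM. Every library of the first 2 days lay above every library of 4 and 7 dpi, and 4 dpi replicate 1 lay between them. Hmox1 fell 2.78-fold from 2 to 4 dpi (log2FC -1.48, SE 0.31, edgeR FDR 0.00367). Without 4 dpi replicate 1 the fall was larger (log2FC -2.11, edgeR FDR 7.04e-06). From lowest to highest the days ran 7, 4, 1 and 2 dpi, and only the step between 4 and 1 dpi passed the FDR (log2FC -1.30, edgeR FDR 0.00404). Without 4 dpi replicate 1 the log2FC of that step was -1.93 (edgeR FDR 7e-06). Between 4 and 7 dpi the log2FC was -0.52 (edgeR FDR 0.222). It was -0.82 to 0.095 when 1 library was left out (edgeR FDR 0.0531 to 0.796), so the order of these days is not settled.

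Of 9 erythroid markers, Slc4a1, which encodes the anion exchanger of the red cell membrane, had 0 counts in all 12 libraries, where 3 counts correspond to 0.0810 to 0.236 CPM. The globin genes Hba-a1 and Hbb-bs were counted in all 12 libraries, at 8 to 76 and 18 to 96 counts. The summed level of the list was 1.38 to 9.13 CPM, and the ranges of the 4 days overlapped. Within it, Epor, the erythropoietin receptor, had 0 to 4 counts at 1 dpi and 0 in the libraries of 2 dpi, then 22 to 40 (4 dpi) and 22 to 56 (7 dpi), and was an upregulated DEG from 2 to 4 dpi (edgeR FDR 0.00171). The part of erythroid cells in these results was not tested.

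Blvrb, the reductase of biliverdin IXβ that also reduces flavins, stood at 22.5, 21.5 and 17.5 CPM at 1 dpi and at 28.5, 25.2 and 22.2 CPM at 2 dpi. It stood at 39.0, 36.9 and 34.7 CPM at 4 dpi and at 39.5, 33.1 and 31.4 CPM at 7 dpi, so that every later library lay above every earlier one. Blvrb rose from 1 to 7 dpi (log2FC 0.76, SE 0.18, edgeR FDR 0.00203). Its rise from 2 to 4 dpi (log2FC 0.55, edgeR FDR 0.0369) was lost in 7 of 22 alternatives, with no filter on low counts and without any 1 of the 6 libraries of 2 and 4 dpi, with an FDR of up to 0.152. Blvra, the main biliverdin reductase of adult tissues, lay between 37.0 and 63.8 CPM at 1, 2 and 4 dpi and at 46.7, 23.4 and 46.6 CPM at 7 dpi. Of the 6 pairs of days, Blvra passed only between 2 and 7 dpi (log2FC -0.57, SE 0.23, edgeR FDR 0.0489). Without 7 dpi replicate 2 the log2FC was -0.27 (edgeR FDR 0.222), and the call was lost without 9 of the 12 libraries in turn.

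The ratio of Hmox1 to Blvrb counts within a library needs no scaling between libraries. As a mean log2 it stood at 4.73 ± 0.15 (SD, n = 3) and 4.61 ± 0.26 on the first 2 days, then at 2.42 ± 0.78 (4 dpi) and 2.15 ± 0.43 (7 dpi), that is, 26.6 Hmox1 counts per Blvrb count on the first day and 4.44 on the last. The ratio differed between days in an exact permutation test over 369600 assignments of libraries to days (adjusted p = 0.0076 over 3 ratios, n = 3 per day). All 6 libraries of 1 and 2 dpi lay above all 6 of 4 and 7 dpi.

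The ferritin mRNAs were by far the most abundant of the 10. Per kilobase of 1 annotated transcript, Fth1 stood at 2260 to 3642 CPM and Ftl1 at 2385 to 3198 CPM as day means, ahead of Hmox1 at 98.9 to 394 CPM per kilobase. Slc11a1 followed at 53.8 to 107 CPM per kilobase. With the length of all exons of a gene merged, Fth1 stood below Ftl1 on every day (975 against 2310 CPM per kilobase at 4 dpi), so the order of the chains depends on the length used. At the other end, Slc40a1 rose from 1.03 CPM per kilobase at 1 dpi, near Spic at 1.04, to 13.1 at 7 dpi, where Tfrc was lowest of the 10 at 3.65.

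Fth1, the heavy chain that oxidises iron for storage, stood at 2034, 1974 and 2291 CPM at 1 dpi and at 3234, 3675 and 3242 CPM at 4 dpi. The libraries of these days did not overlap, and Fth1 rose (log2FC 0.69, SE 0.25, edgeR FDR 0.0417), a call lost without 9 of the 12 libraries in turn (edgeR FDR 0.052 to 0.116). At 7 dpi it stood at 3644, 1676 and 2921 CPM, with replicate 2 below every library of 1 dpi. From 1 to 7 dpi its log2FC was 0.39 (edgeR FDR 0.211), and without 7 dpi replicate 2 it was 0.67 (edgeR FDR 0.0081).

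Ftl1, the light chain that helps build the iron core, stood at 2422, 2314 and 2316 CPM at 1 dpi, at 2931, 3325 and 3031 CPM at 4 dpi and at 3496, 1115 and 2314 CPM at 7 dpi. The 4 dpi libraries lay above those of 1 dpi, but the log2FC of 0.40 did not pass (SE 0.30, edgeR FDR 0.326). From 4 to 7 dpi the log2FC was -0.42 (edgeR FDR 0.308), and -0.85 to -0.08 when 1 library was left out (edgeR FDR 0.0485 to 0.84). It passed only without 7 dpi replicate 1, a fit that keeps the low replicate 2. From 2 to 7 dpi the log2FC was -0.17 (edgeR FDR 0.654), and 0.19 without 7 dpi replicate 2 (edgeR FDR 0.479). Reads of near-identical ferritin copies can be split in counting: the pseudogene Ftl1-ps1 held 1.97 to 4.26% as many counts as Ftl1, and those of Fth1 at most 0.0441% as many.

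Heavy chain mRNA gained on light chain mRNA over the week. The mean log2 ratio of Fth1 to Ftl1 counts went from -0.17 ± 0.13 (SD, n = 3) at 1 dpi through 0.03 ± 0.08 and 0.13 ± 0.03 (2 and 4 dpi) to 0.33 ± 0.26 at 7 dpi. The days differed in the exact permutation test (adjusted p = 0.00909, n = 3 per day). At 7 dpi the libraries ran from 0.06 to 0.59, and the highest was replicate 2, the library with the least ferritin mRNA.

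Slc40a1, which encodes ferroportin, stood at 3.77, 3.45 and 3.23 CPM at 1 dpi and at 1.73, 1.89 and 1.22 CPM at 2 dpi. It stood at 11.01, 31.2 and 14.9 CPM at 4 dpi and at 44.8, 55.5 and 32.2 CPM at 7 dpi. No library of a day overlapped with those of another day, and 2 dpi was lowest. Slc40a1 rose 11.8-fold from 2 to 4 dpi (log2FC 3.56, SE 0.36, edgeR FDR 8.79e-06). Replicate 2 was the highest library of 4 dpi. When 1 library was left out, the log2FC of this step was 3.01 to 3.84 (edgeR FDR up to 0.000145). From 2 to 7 dpi Slc40a1 rose 27.5-fold (log2FC 4.78, SE 0.37, edgeR FDR 7.08e-07), the largest change among the 10 genes over the 6 pairs of days.

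The steps at either end of this course were less firm. From 4 to 7 dpi Slc40a1 rose by a log2FC of 1.22 (SE 0.31, edgeR FDR 0.0104), and without 4 dpi replicate 1 the log2FC was 0.92 (edgeR FDR 0.045), below the fold threshold. Without both libraries that stood apart it was 0.76 (edgeR FDR 0.119). From 1 to 2 dpi the log2FC was -1.11 (SE 0.36, edgeR FDR 0.053), which passed in 9 of 22 alternatives, DESeq2 among them (FDR 0.0191). Without 4 dpi replicate 1, 4 dpi replicate 2, 7 dpi replicate 2 or 7 dpi replicate 3, the edgeR FDR was 0.011 to 0.0464.

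Tfrc, the transferrin receptor, stood at 73.7, 92.8 and 79.6 CPM on the first day and at 113, 117 and 84.0 CPM at 2 dpi. Levels of 81.8, 40.8 and 90.9 CPM at 4 dpi were followed by 10.4, 15.6 and 27.6 CPM at 7 dpi. The 3 libraries of 7 dpi lay below all others. Tfrc fell 3.99-fold from 4 to 7 dpi (log2FC -1.995, SE 0.32, edgeR FDR 0.000899), and no pair among 1, 2 and 4 dpi passed (edgeR FDR 0.227 to 0.642).

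The ratio of Slc40a1 to Tfrc turned over within the week. The mean log2 was -4.51 ± 0.25 (SD, n = 3) and -5.96 ± 0.07 on the first 2 days, then -1.96 ± 1.37 (4 dpi) and 1.38 ± 1.01 (7 dpi). In counts, Tfrc exceeded Slc40a1 62.2-fold at 2 dpi, and Slc40a1 exceeded Tfrc 2.61-fold at 7 dpi. These are counts not set against transcript length. The libraries of the 4 days did not overlap, and the exact permutation test gave the smallest p it allows (6.49e-05, adjusted 0.000195, n = 3 per day). The widest spread was at 4 dpi, where replicate 2 stood at -0.39 and replicate 1 at -2.89.

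**Figure D2:**
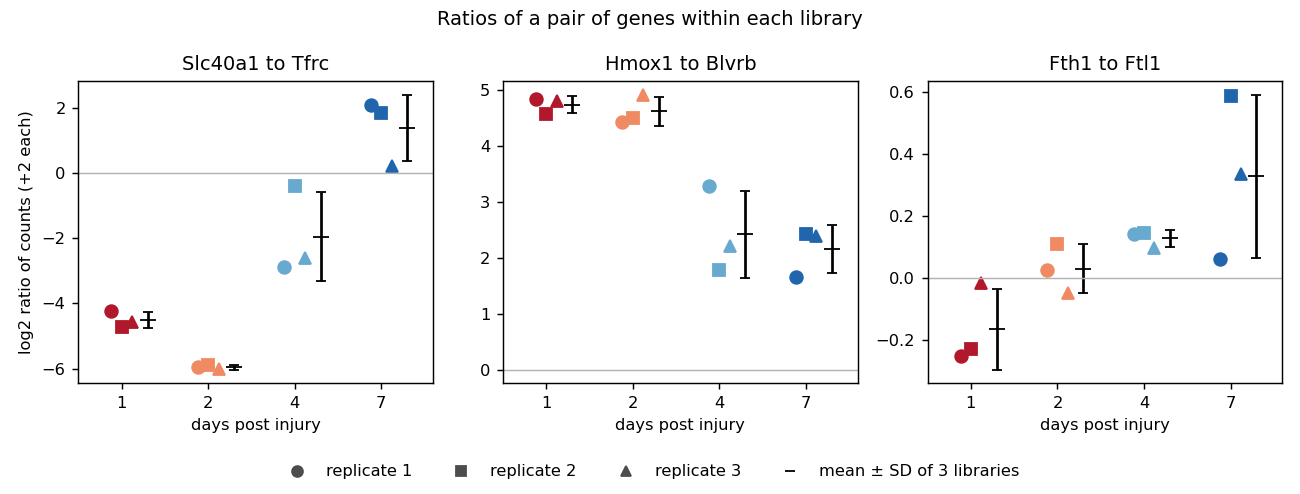
log2 ratio of the counts of 2 genes within each library (2 added to each count) against days post injury, with the mean ± SD of 3 libraries beside the points. The ratio of Slc40a1 to Tfrc lies at -4.51 on average at 1 dpi and at 1.38 at 7 dpi, that of Hmox1 to Blvrb drops from 4.61 at 2 dpi to 2.42 at 4 dpi, and that of Fth1 to Ftl1 moves from -0.17 to 0.33.

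The divalent metal transporters took other courses. Slc11a1, which pumps iron and manganese out of phagosomes, stood at 280, 236 and 225 CPM at 1 dpi and at 142, 124 and 153 CPM at 2 dpi, with no overlap. It fell 1.77-fold (log2FC -0.82, SE 0.18, edgeR FDR 0.00735), the only 1 of the 10 genes to pass from 1 to 2 dpi (12.5% of all genes passed). Without 2 dpi replicate 2 the FDR was 0.0576. It stood at 153, 195 and 169 CPM at 4 dpi and at 128, 102 and 143 CPM at 7 dpi, and from 1 to 7 dpi it fell by a log2FC of -0.99 (SE 0.18, edgeR FDR 0.000371).

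Neutrophils also express Slc11a1, and their markers moved over the same days. The summed level of 12 neutrophil markers was 131 to 204 CPM at 1 dpi, with 11 of them counted. It was 55.5 to 82.3 CPM at 2 and 4 dpi, with 9 and 7 counted, and 43.5 to 52.8 CPM at 7 dpi, with 7 counted. S100a8, S100a9 and Cxcr2 fell from 1 to 7 dpi (edgeR FDR 2.49e-06, 1.32e-06 and 8.27e-06), with S100a8 at 10.6 to 38.7 CPM at 1 dpi and at 0 counts in all libraries of 7 dpi. Csf3r, the receptor for granulocyte colony-stimulating factor, held most of the later sum (medians of 58.0 and 48.8 CPM at 4 and 7 dpi) and rose from 2 to 4 dpi (log2FC 1.18, edgeR FDR 0.000879). At 1 dpi the largest parts of the sum were Mmp8 (45.9 to 83.6 CPM) and Csf3r (42.7 to 61.3 CPM). Ly6g, Ngp, Elane, Ltf and Mpo had at most 16 counts in any library of that day. Camp was at 0 on every day, and Ly6g had 0 to 4 counts at 1 dpi and 0 from 2 dpi on. The part of neutrophil RNA in the fall of Slc11a1 was not tested.

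Slc11a2, which moves iron from endosomes into the cytosol, lay between 22.7 and 32.1 CPM in all libraries of 1, 2 and 4 dpi. At 7 dpi it stood at 28.3, 57.7 and 31.8 CPM, so that 7 dpi replicate 2 was high while the other 2 lay within the earlier range. No pair of days passed (edgeR FDR 0.104 to 0.948). From 1 to 7 dpi the log2FC was 0.49, and 0.13 to 0.69 when 1 library was left out (edgeR FDR 0.0321 to 0.619). The largest came without 7 dpi replicate 1, a fit that keeps the high replicate 2. From 2 to 7 dpi the log2FC was 0.40, and 0.05 without 7 dpi replicate 2 (edgeR FDR 0.866). Reads of Slc11a2 can overlap those of Gm5475 on the opposite strand, which held 113 counts against 10132 of Slc11a2 over all libraries.

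Spic, the transcription factor that red pulp macrophages of the spleen need and that heme induces in monocytes of mice, was scarce early. It stood at 0.786, 1.76 and 2.95 CPM at 1 dpi (10, 43 and 64 counts) and at 0.338, 1.49 and 1.15 CPM at 2 dpi. It stood at 6.87, 8.04 and 9.97 CPM at 4 dpi and at 17.1, 11.1 and 20.6 CPM at 7 dpi (632, 361 and 729 counts). The first 2 days overlapped, and all libraries of 4 dpi lay above them and below those of 7 dpi. Spic rose 8.45-fold from 2 to 4 dpi (log2FC 3.08, SE 0.45, edgeR FDR 0.000237). From 4 to 7 dpi the log2FC was 0.97 (SE 0.39, edgeR FDR 0.0766), which passed in 6 of 22 alternatives, such as limma-voom (FDR 0.0164) and the fit without 1 dpi replicate 1 (FDR 0.0478).

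**Figure D3:**
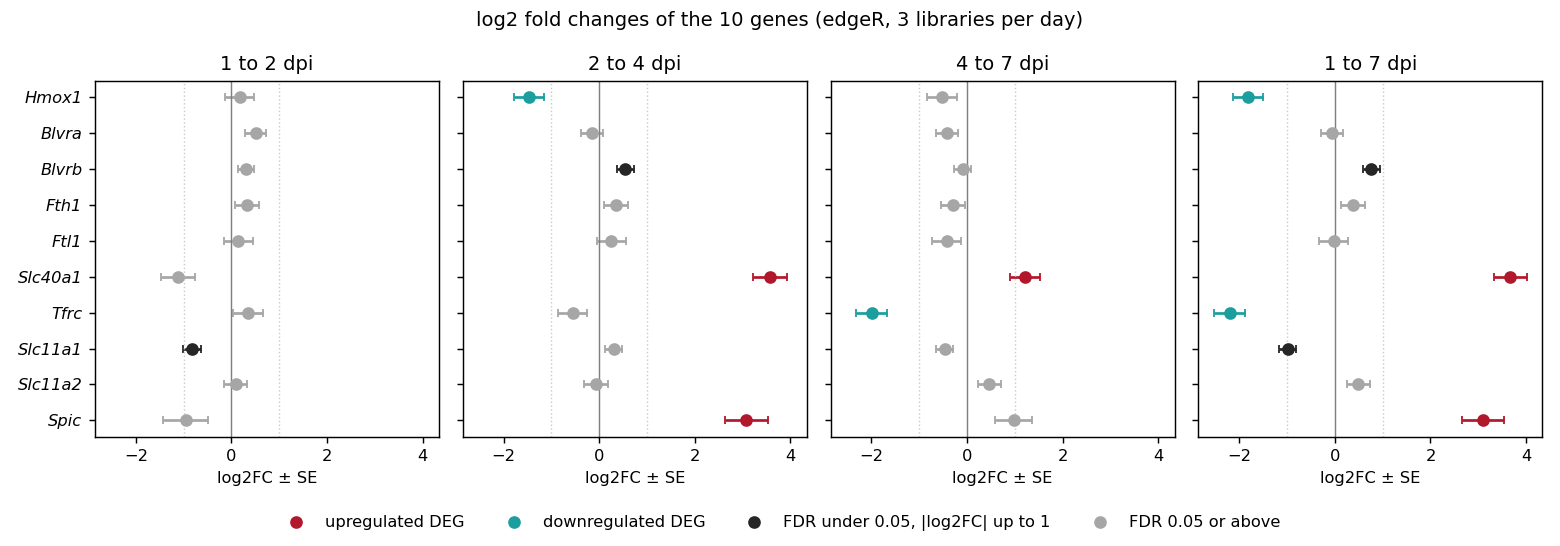
log2FC ± SE of the 10 genes in 4 comparisons of days (edgeR, 3 libraries per day), with dotted lines at -1 and 1. From 2 to 4 dpi Slc40a1 (3.56) and Spic (3.08) are upregulated and Hmox1 (-1.48) downregulated DEGs, and from 4 to 7 dpi Tfrc (-1.995) is the downregulated and Slc40a1 (1.22) the upregulated DEG.

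The libraries of successive days did not overlap for 4 of the 10 genes from 1 to 2 dpi (39.4% of all genes), 5 from 2 to 4 dpi (44.2%) and 4 from 4 to 7 dpi (40%). Between the first and last day, 6 did not overlap (55.9%). The median log2FC of the 10 genes was 0.16, 0.28 and -0.36 over these steps, beside 0.01, 0.04 and -0.03 over all genes tested. Beside the 0 DEGs from 1 to 2 dpi, 3 genes had an unadjusted p under 0.05 in edgeR, DESeq2 called 1 DEG (Slc40a1) and limma-voom called 0.

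Summed markers of some other cell types were higher at 7 dpi than at 1 dpi, as were Slc40a1 and Spic. The summed level of 7 fibroblast markers was 16.6 to 53.7 CPM on the first 2 days, 166 to 313 CPM at 4 dpi and 477 to 929 CPM at 7 dpi, with all 7 counted on each day. That of 10 muscle fibre markers was 5.999 to 17.2 CPM up to 4 dpi and 41.7 to 105 CPM at 7 dpi. That of 6 dendritic cell markers was 2.72 to 5.89 CPM at 1 dpi and 1.79 to 2.59 CPM at 2 dpi. It was 3.91 to 6.32 CPM at 4 dpi and 6.59 to 16.2 CPM at 7 dpi. That of 7 endothelial markers was 21.2 to 49.1 CPM up to 4 dpi and 38.6 to 91.5 CPM at 7 dpi. Within these lists, 6 of 7 fibroblast and 4 of 6 dendritic cell markers were upregulated DEGs from 1 to 7 dpi, beside 33.7% of all genes in either direction. Pdgfra of the fibroblasts did not pass (log2FC 0.56, edgeR FDR 0.381), nor did Xcr1 of the dendritic cells (log2FC -1.41, edgeR FDR 0.0678). Among the 7 dpi libraries, replicate 2 had the lowest fibroblast sum (477 CPM), the highest Slc40a1 (55.5 CPM) and the lowest Spic (11.1 CPM). The part of these other cell types in the rises of Slc40a1 and Spic was not tested.

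**Figure D4:**
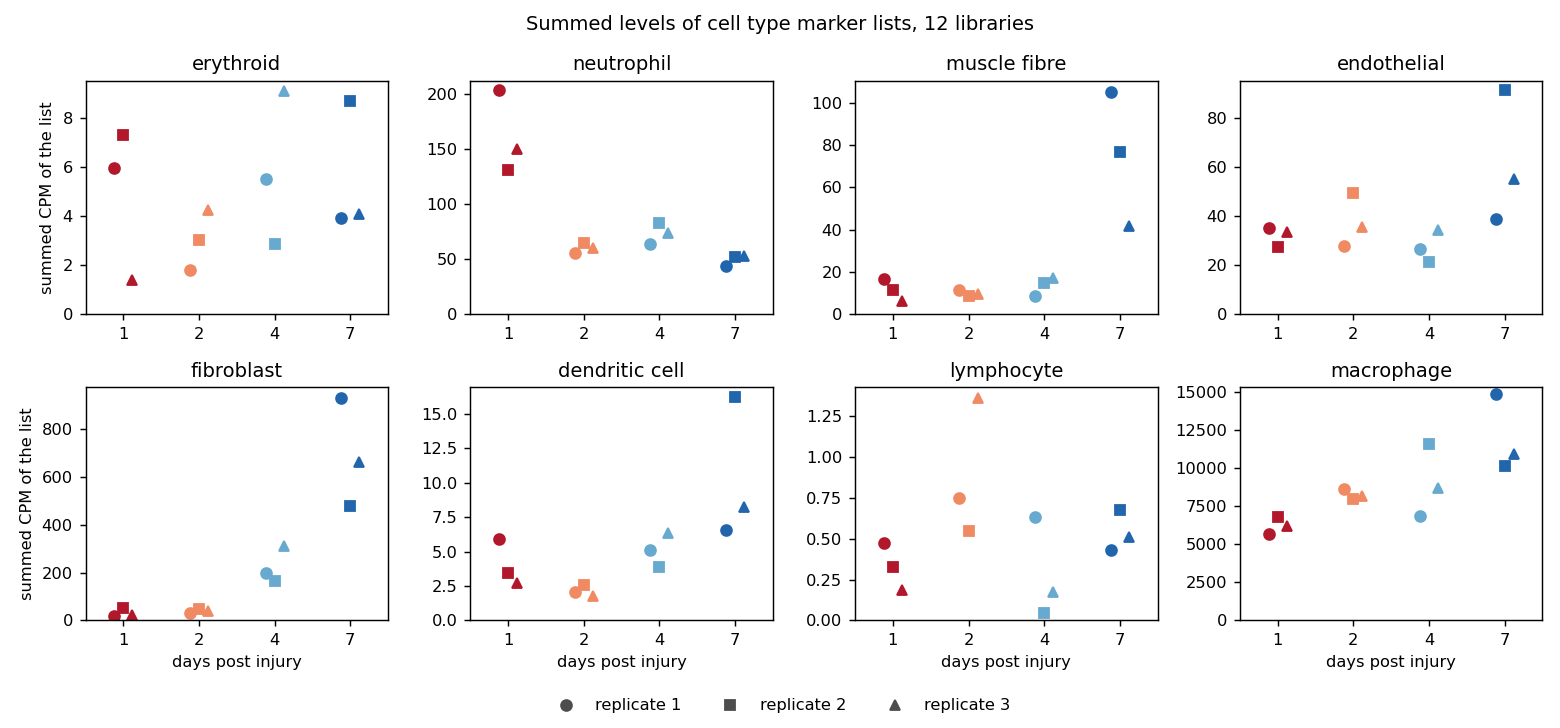
Summed CPM of 8 marker lists in each library against days post injury, each panel on its own scale from 0. The erythroid list stays below 10 CPM in all 12 libraries, the neutrophil list is highest at 1 dpi (131 to 204 CPM) and the fibroblast list at 7 dpi (477 to 929 CPM).

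Genes around these 10 moved in both directions. Of 9 tested genes of heme uptake, transport and scavenging, 2 were DEGs upward and 2 downward from 1 to 7 dpi, beside 33.7% of all genes called in either direction. Their median log2FC was -0.29, beside 0.16 for all genes. Hebp1, a cytosolic heme-binding protein, stood at 1.89 to 2.12 CPM at 1 dpi, 8.49 to 10.3 CPM at 2 dpi and 24.9 to 44.0 CPM at 4 dpi. It rose from 1 to 2 dpi (log2FC 2.204, SE 0.32) and from 2 to 4 dpi (log2FC 1.97, SE 0.29). Its edgeR FDRs were 0.00028 and 0.000213.

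Abcg2, which exports porphyrins, rose from 2 to 4 dpi (log2FC 1.61, edgeR FDR 0.000564). Slc46a1, a folate carrier that can also carry heme, rose from 1 to 2 dpi (log2FC 1.35, edgeR FDR 0.0122) and fell from 4 to 7 dpi (log2FC -0.88, edgeR FDR 0.0478). Cd163, the receptor for hemoglobin bound to haptoglobin and the other DEG of the list, fell from 2 to 4 dpi (log2FC -1.83, edgeR FDR 0.0222). It is outside the rule by which genes were named and was added after its values were seen.

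Hp, which encodes haptoglobin, the plasma protein that binds free hemoglobin, fell at each step. It stood at 88.3, 90.1 and 128 CPM on the first day and at 19.9, 20.01 and 18.2 CPM on the next. By 4 dpi it was down to 7.20, 2.04 and 1.76 CPM, and by 7 dpi to 0.324, 0.308 and 1.70 CPM. The libraries of the 4 days did not overlap. The log2FC was -2.40, -2.37 and -2.26 over the 3 steps (edgeR FDR 0.00305, 0.00312 and 0.009). Neutrophils also store haptoglobin, and the part of the falling neutrophil markers in this was not tested.

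In iron uptake and endosomal release, 3 of 8 tested genes were DEGs upward and 2 downward from 1 to 7 dpi beside 33.7% of all genes in either direction (median log2FC -0.31, beside 0.16 over all genes). Trf, the plasma iron carrier transferrin, stood at 226, 191 and 174 CPM on the first day and at 59.3, 54.9 and 45.7 CPM on the next. Levels of 79.2, 538 and 265 CPM (4 dpi) and of 791, 913 and 618 CPM (7 dpi) followed. It was lowest at 2 dpi, as was Slc40a1, and the libraries of successive days did not overlap. It fell from 1 to 2 dpi (log2FC -1.89, edgeR FDR 0.00825) and rose over both later steps (log2FC 2.46 with edgeR FDR 0.001, then 1.40 with edgeR FDR 0.0244).

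Slc39a14, an importer of iron not bound to transferrin, stood at 121 to 200.2 CPM at 1 dpi, at 24.3, 3.64 and 5.84 CPM at 4 dpi and at 5.78 to 7.42 CPM at 7 dpi. The step from 2 to 4 dpi was a fall (log2FC -2.56, SE 0.47, edgeR FDR 0.0012), with 4 dpi replicate 1 above the other libraries of its day as in Hmox1. Lcn2, which binds the iron carriers of bacteria and is a granule protein of neutrophils, had 66 to 238 counts at 1 dpi and 0 counts in the 3 libraries of 7 dpi. Against a floor of 3 counts over the 7 dpi group it was at least 289-fold lower.

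In the lists of storage and export, Ncoa4, the receptor that sends ferritin to lysosomes, rose from 2 to 4 dpi (log2FC 1.67, SE 0.22, edgeR FDR 8.92e-05). Pcbp1, a chaperone that hands iron to ferritin, fell from 1 to 7 dpi (log2FC -1.11, edgeR FDR 0.000954). All 3 tested genes of iron export and systemic control rose from 1 to 7 dpi, where 48.2% of all genes passed the FDR in either direction. Hfe, a partner of the transferrin receptors, rose from a median of 17.9 CPM at 2 dpi to 87.2 CPM at 4 dpi (log2FC 2.38, SE 0.25, edgeR FDR 1.11e-05).

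Cp, the ferroxidase ceruloplasmin that works beside ferroportin, stood at 0.789, 0.796 and 0.215 CPM at 2 dpi, at 1.88, 6.04 and 3.51 CPM at 4 dpi and at 15.4, 19.4 and 8.00 CPM at 7 dpi. It rose from 2 to 4 dpi (log2FC 2.67, SE 0.53, edgeR FDR 0.00229) and from 4 to 7 dpi (log2FC 1.91, SE 0.46, edgeR FDR 0.00791). The order of the libraries within 4 and 7 dpi was that of Slc40a1. The summed fibroblast markers rose over the same steps, and their part in the rises of Cp and Trf was not tested. Bmp6, a signal for hepcidin in the liver, rose from 1 to 7 dpi (log2FC 3.35, edgeR FDR 0.0379) on 0 to 2 counts at 1 dpi and 12 to 44 at 7 dpi.

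Fbxl5, which degrades an iron regulatory protein when iron is plentiful, fell from 1 to 2 dpi (log2FC -1.63, SE 0.23, edgeR FDR 0.000263), and of the mRNAs of the iron regulatory proteins, Aco1 passed the FDR in none of the 4 comparisons (edgeR FDR 0.172 to 0.997). The other, Ireb2, fell from 4 to 7 dpi (log2FC -0.85, edgeR FDR 0.00231), below the fold threshold. Among genes of heme synthesis, Cpox, which makes protoporphyrinogen, rose from 1 to 7 dpi (log2FC 1.42, edgeR FDR 0.000142). Of 10 genes of mitochondrial iron and iron-sulphur clusters, the importer Slc25a28 rose from 4 to 7 dpi (log2FC 1.31, edgeR FDR 0.00225) and the assembly factor Isca2 fell from 1 to 7 dpi (log2FC -1.36, edgeR FDR 0.000121).

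Among 8 regulators, Hif1a, which can drive Hmox1 and Tfrc under low oxygen, went from a median of 807 CPM at 1 dpi through 280 and 115 CPM (2 and 4 dpi) to 76.8 CPM at 7 dpi. It fell from 1 to 2 dpi (log2FC -1.56, edgeR FDR 0.000176) and from 2 to 4 dpi (log2FC -1.35, edgeR FDR 0.000338). The small Maf proteins pair with the heme sensor Bach1 and its counterpart Nfe2l2. Of these, Maff fell from 1 to 2 dpi (log2FC -1.27, edgeR FDR 0.0108) and Mafg from 2 to 4 dpi (log2FC -1.05, edgeR FDR 0.00248). Nr1h3, the sterol receptor LXRα, rose from 2 to 4 dpi (log2FC 1.34, edgeR FDR 0.0326).

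**Figure D5:**
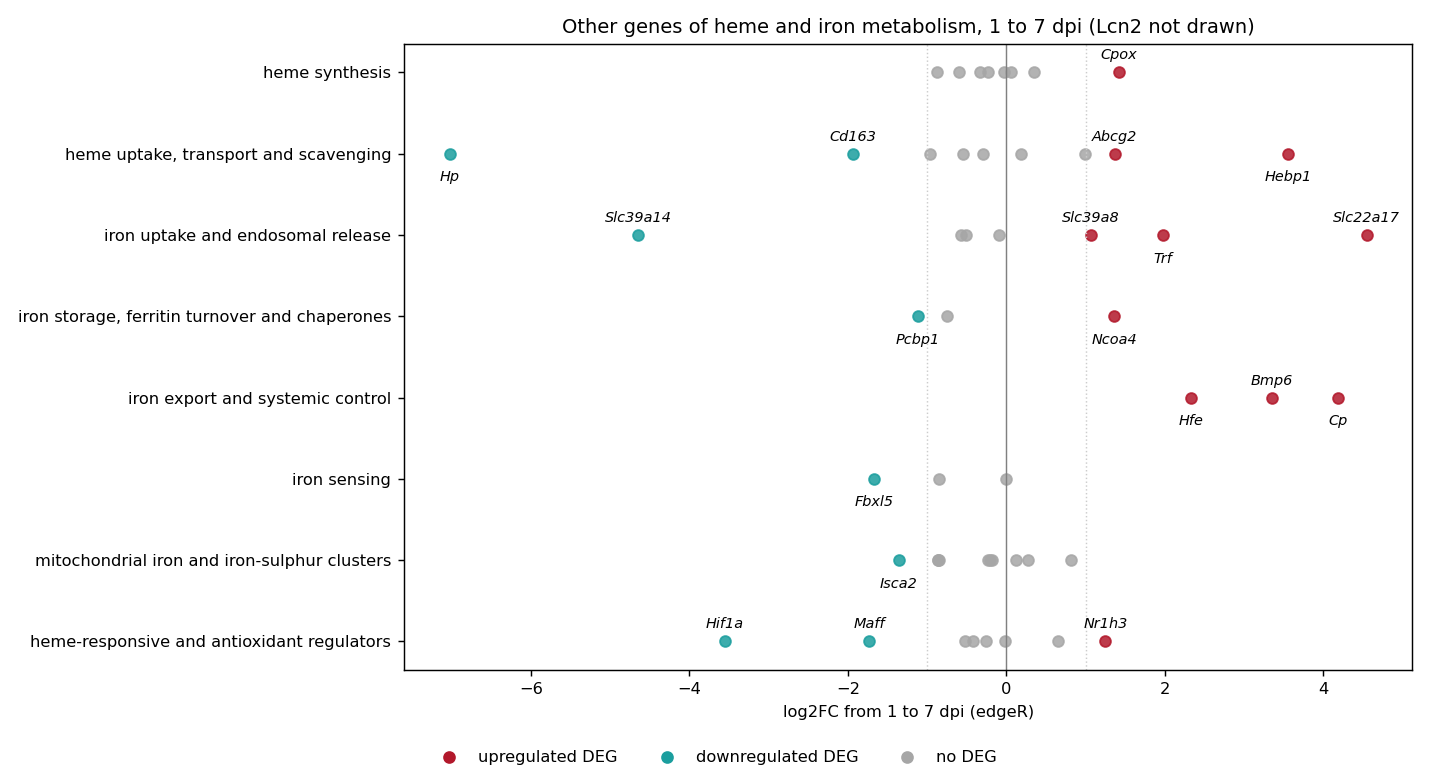
log2FC from 1 to 7 dpi (edgeR) of the tested genes in 8 lists of heme and iron metabolism, 1 point per gene, with DEGs named and dotted lines at -1 and 1. Hp (-7.03) lies farthest to the left and Slc22a17 farthest to the right, on 0 to 2 counts at 1 dpi. Lcn2 is left out because its 0 counts at 7 dpi give no fold.

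The genes whose course over the 12 libraries lay nearest to a member were found among 6667 genes by the root mean square distance of centred log2 CPM. Nearest to Hmox1 were Azin1, which inhibits antizyme (0.18), Eif4e, the cap-binding factor (0.22), and Dab2, an endocytic adaptor (0.22), where the median over all candidates was 0.92. For Slc40a1 they were Tmem176b (0.30), Tmem176a (0.44) and Cd33 (0.47), against a median of 2.02.

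For Tfrc the nearest were Cs, the citrate synthase (0.36), Tuba1c, a tubulin (0.38), and Hnrnpa1, an RNA-binding protein (0.38), against a median of 1.06. For Spic they were Axl, a receptor for engulfing dead cells (0.55), Ppfia4 (0.63) and Tmem176b (0.71), against a median of 1.89. These distances are descriptions over libraries that share their days.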

How the data were processed

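Macrophages sorted from ischemic mouse muscle were measured in 12 libraries by Smart-seq2/3, which primes on oligo-dT and does not mark strand. Per the submitters' notes, the authors used Trim Galore 0.6.6, HISAT2 2.2.1 (genome build GRCm39), and Subread 2.0.1 for counting. They deposited raw counts per gene. All 12 columns were used. Of counts from 1 to 20, 76.6 to 85.5% were even. Whether mates were counted singly is not given in the sources used here, and small counts may overstate fragments. Symbols and lengths came from a GRCm38 annotation by Ensembl ID (52081 of 55414 IDs had a symbol), so no coordinates are given.

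The tools were edgeR 4.0.16 under R 4.3.3 (filterByExpr, TMM, quasi-likelihood test, 1 coefficient per day over all 12 libraries, Benjamini-Hochberg over 14310 genes), limma 3.58.1 and DESeq2 1.42.0, tested on simulated data. Thresholds follow the paper. log2 CPM used a prior count of 2. The 3 ratios were tested by exact permutation, two-sided, with Benjamini-Hochberg adjustment over them. Floors of 3 counts cover counting error only. Members and lists were chosen with earlier results of these data known. Named were the 10 members, up to 3 DEGs of smallest p per list and comparison, and the 3 nearest profiles of Hmox1, Slc40a1, Tfrc and Spic. Some genes under this rule are not reported here. Alternatives were 2 other filters, other size factors, DESeq2, limma-voom, the replicate block, only the 6 libraries compared, no fold threshold and each library left out. Leaving out ENSMUSG00000119584, or both libraries that stood apart, was added after seeing the data.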

Additional observations from a re-analysis of the deposited data

How the results depend on the processing

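The falls of Hmox1 and the rises of Slc40a1 and Spic from 2 to 4 dpi, and the fall of Tfrc from 4 to 7 dpi, were called in all 22 alternatives. From 1 to 2 dpi the count of DEGs was 1 in place of 0 with no filter on low counts, with DESeq2, with the replicate block, with only the 6 libraries compared and without both libraries that stood apart (Slc40a1 each time), and 1 with no fold threshold (Slc11a1). Leaving out 1 library gave 0 to 1. From 4 to 7 dpi the count was 1 without both libraries that stood apart, and 1 to 3 when 1 library was left out, where 4 dpi replicate 1 took away Slc40a1 and 1 dpi replicate 1 added Spic. Fitting only the 6 libraries compared gave 3, as did DESeq2. From 2 to 4 dpi it was 3 whichever library was left out and 4 with no fold threshold, and from 1 to 7 dpi it was 4 to 5, with 6 under no fold threshold and 5 with only the 6 libraries compared. For the other pairs of days, added after seeing the data, leaving out 1 library in turn lost Slc11a1 from 1 to 4 dpi in 8 of 12 fits and Blvrb from 2 to 7 dpi in 6.

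Same-numbered libraries showed little shared deviation (correlation of deviations from the day means -0.13 to 0.13 over successive days). With 3 libraries per day this cannot tell whether the numbers pair them. With the replicate block, the DEG counts were 1, 3, 2 and 4 from 1 to 2, 2 to 4, 4 to 7 and 1 to 7 dpi, Spic passed the FDR from 4 to 7 dpi (0.0459), and the 3 ratios gave adjusted p of 0.00521, 0.026 and 0.026 in the exact permutation test within replicate numbers (n = 3 per day). When 1 library was left out, the change of the ratios from 1 to 7 dpi was 5.54 to 6.47 for Slc40a1 to Tfrc, 0.36 to 0.63 for Fth1 to Ftl1 and -2.72 to -2.33 for Hmox1 to Blvrb. Calls at the FDR alone were gained by Blvra from 1 to 2 dpi without 7 dpi replicate 2 (0.0417) and by Slc11a1 from 4 to 7 dpi without 7 dpi replicate 3 (0.0331). Spic at 1 and 2 dpi rests on 9 to 64 counts per library, which limits its early values.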
